A study of Mus musculus with 12 samples.

Results

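The genes described here serve antibody secretion and the unfolded protein response. They were chosen by name, as 40 genes of the secretory pathway, and all 40 were found among the 43629 genes of the count table. All 40 also passed the filter on low counts in both comparisons. By role they are 5 plasma cell regulators and antibody assembly genes, 5 stress sensors and transcription factors, 9 chaperones and co-chaperones, and 6 disulfide isomerases and lectin chaperones. A further 5 serve ER-associated degradation, 9 serve translocation into the ER and signal peptide cleavage, and 1 serves export from the ER.

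RNA was sequenced from mouse splenic B cells sorted by flow cytometry, with 4 libraries in each of 3 groups. The first group holds marginal zone (MZ) B cells lacking Zfp36l1 (genotype Zfp36l1fl/flERT2cre/+, replicates 1, 2, 7 and 8), here called deficient MZ cells. The second holds control MZ cells (ERT2cre/ERT2cre, replicates 3, 4, 5 and 6). The third holds follicular (FO) B cells (Zfp36l1fl/fl, cre-, replicates 3, 4, 7 and 8). Deficient and control MZ cells thus differ both in whether Zfp36l1 is floxed and in how many copies of ERT2cre they carry, and the labels give a strain name of Zfp36l1tm1.1Tnr. The MZ gate took CD21hi CD23- cells and the FO gate CD21+ CD23+ cells, and both gates are labelled B220+ CD93+. Per the design text, MZ libraries came from 5 ng of RNA with a SMARTer kit and were read as 100 bp pairs. By the same text, FO libraries came from a stranded TruSeq mRNA kit and were read as 100 bp single ends. Neither an animal for each replicate nor any treatment to induce the cre is given in the labels.

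Library totals ran from 28938453 to 40664963 counts. Zfp36l1, the targeted gene, had 21.99, 31.9, 28.1 and 37.5 counts scaled to library size (CPM) in deficient MZ libraries, against 116, 109.6, 118 and 126 CPM in control MZ libraries (log2 fold change -1.98, SE 0.13, adjusted p = 4.92e-07; edgeR quasi-likelihood test). Exons on the opposite strand cover 55.9% of its exonic bases. The MZ markers Cr2, Cd1d1, S1pr3 and Dtx1 summed to 5947 to 6490 CPM in deficient MZ cells, 6842 to 7196 CPM in control MZ cells and 1368 to 1731 CPM in FO cells. Between deficient and control MZ cells these markers did not move one way. In the authors' deposited table, the log2 fold change was 0.49 for Cd1d1, -0.24 for Cr2, -0.37 for Dtx1 and -0.105 for S1pr3. The 10 plasma cell markers summed to 268 to 295 CPM in deficient MZ cells, 227 to 275 CPM in control MZ cells and 390 to 441 CPM in FO cells. Of these 10, only Tnfrsf17 and Cd28 were under 0.5 CPM in every library, and so were Cd3e, Cd3d, Cd3g and Cd4 of T cells. Txndc5, another of the 10, averaged 186 CPM in deficient MZ, 164 CPM in control MZ and 272 CPM in FO cells. A few plasma cells with much RNA and many B cells with a little RNA cannot be told apart in such bulk samples.

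Antibodies are threaded into the endoplasmic reticulum (ER) as they are made, folded there by chaperones and disulfide isomerases, and shipped on or, if misfolded, returned to the cytosol and degraded. When unfolded protein builds up, the sensors IRE1 (Ern1), ATF6 (Atf6) and PERK (Eif2ak3) raise the folding capacity of the ER, in part through the transcription factor XBP1. Plasma cells depend on XBP1 and on Blimp-1 (Prdm1), and MZ B cells are known for turning into plasma cells quickly. Zfp36l1 encodes an RNA-binding protein that attaches to AU-rich elements in 3′ untranslated regions (UTRs) and promotes decay of the RNA.

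Some of these genes share a promoter sequence through which the stress response acts, and it is shown here because it names a subset of the 40 by sequence alone. The ER stress response element (ERSE) is CCAAT, 9 bases of any kind and CCACG, and both strands were searched. RefSeq promoters (build GRCm38.p6), from 250 bases before the start to 50 bases after it, were matched for 33 of the 40 genes. The exact element was found in 8 of these 33 (24.2%), against 37 of 27025 RefSeq genes (0.137%). With 1 mismatch allowed in CCACG, it was found in 13 of the 33 (39.4%), against 1.14% of RefSeq genes. The element lay 212 to 26 bases before the start, and Hsp90b1 held it 2 times. The 40 genes were chosen by name, many for their part in this response, so a share above that of RefSeq genes follows from the choice. A letter match is a description and not a measured binding site. The whole window of Hspa5, which encodes the chaperone BiP, follows with the element's fixed letters in capitals.
Hspa5 promoter (chr2:34771840-34772139, plus strand): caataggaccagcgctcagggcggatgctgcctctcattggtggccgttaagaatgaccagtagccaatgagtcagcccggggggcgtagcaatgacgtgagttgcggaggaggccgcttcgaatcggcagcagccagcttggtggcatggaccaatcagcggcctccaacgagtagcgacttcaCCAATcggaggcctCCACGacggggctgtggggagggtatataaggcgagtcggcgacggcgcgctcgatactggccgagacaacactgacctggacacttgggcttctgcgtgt

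The 9 exact matches follow with 12 bases on each side, 5′ to 3′ on the strand of the gene, with the fixed letters in capitals. Matches on the opposite strand to the gene read CGTGG, 9 bases and ATTGG.
Hspa5 (chr2:34772013-34772055, plus strand): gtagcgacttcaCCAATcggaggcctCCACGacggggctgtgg
Hsp90b1 (chr10:86705626-86705668, minus strand): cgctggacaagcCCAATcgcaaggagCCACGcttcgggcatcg
Hsp90b1 (chr10:86705521-86705563, minus strand): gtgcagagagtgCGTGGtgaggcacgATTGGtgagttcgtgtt
Dnajc3 (chr14:118937815-118937857, plus strand): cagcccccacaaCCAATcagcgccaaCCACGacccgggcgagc
Creld2 (chr15:88819508-88819550, plus strand): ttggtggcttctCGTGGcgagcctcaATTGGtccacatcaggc
Pdia6 (chr12:17266479-17266521, plus strand): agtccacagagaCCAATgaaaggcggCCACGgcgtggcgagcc
Calr (chr8:84847063-84847105, minus strand): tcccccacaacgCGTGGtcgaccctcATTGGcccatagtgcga
Canx (chr11:50325788-50325830, minus strand): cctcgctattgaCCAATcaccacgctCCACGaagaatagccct
Syvn1 (chr19:6046520-6046562, plus strand): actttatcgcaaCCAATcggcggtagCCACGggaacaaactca

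Other elements of the response were rarer among the 33 promoters. ERSE-II (ATTGG, 1 base, CCACG) was found in Dnajb11 and Herpud1, against 0.0444% of RefSeq genes. The XBP1 site TGACGTGG was found in Sec24d only, against 0.714%, and the ATF4 site TGATGNAA in Herpud1 only, against 4.51%. Both strands were searched for each. The ERSE-II matches are shown with all 11 letters in capitals.
Dnajb11 (chr16:22857840-22857874, plus strand): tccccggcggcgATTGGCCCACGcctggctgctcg
Herpud1 (chr8:94386365-94386399, plus strand): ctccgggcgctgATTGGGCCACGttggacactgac
The XBP1 site of Sec24d and the ATF4 site of Herpud1, which is on the opposite strand, are shown in the same way.
Sec24d (chr3:123267458-123267489, plus strand): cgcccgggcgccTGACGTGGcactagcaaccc
Herpud1 (chr8:94386305-94386336, plus strand): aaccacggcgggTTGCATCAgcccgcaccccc

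**Figure D1:**
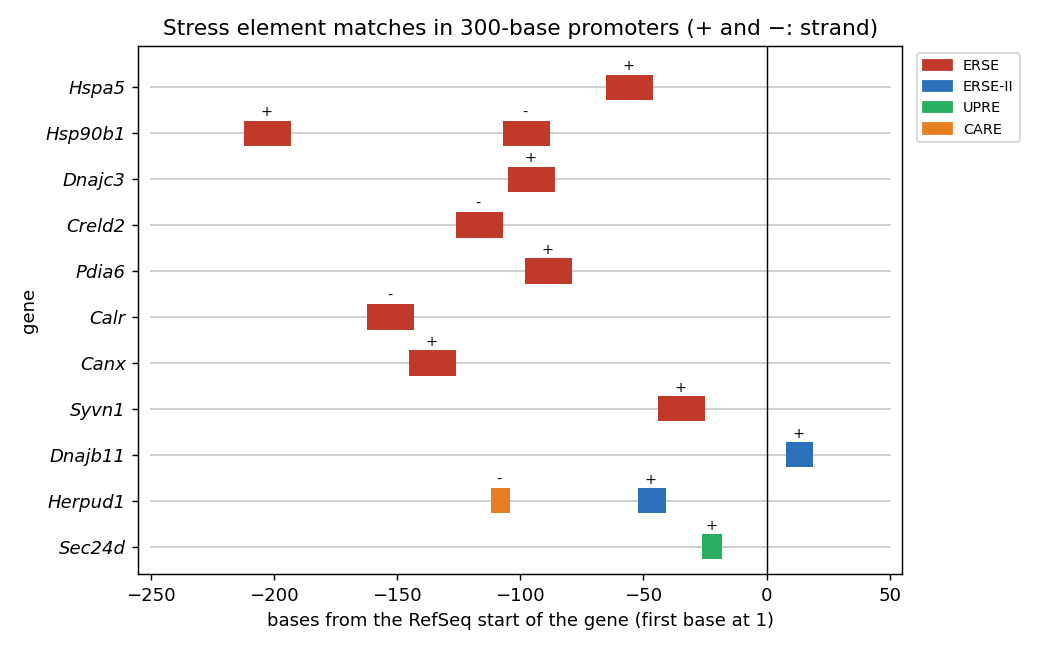
Stress element matches in the RefSeq promoters of the 11 genes with a match, plotted as bases from the start of the gene, with colours for the kind of element and + or − for the strand. The ERSE matches all sit before the start, and the ERSE-II match of Dnajb11 is the only match after it.

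Levels of the genes differed widely. Per kilobase of exon, Pdia4, a disulfide isomerase of the ER, was the most abundant in MZ cells, at 754 CPM per kb in deficient and 709 CPM per kb in control MZ cells. Mzb1, an ER chaperone partner of B cells that aids antibody assembly, came next at 539 CPM per kb in deficient and 512 CPM per kb in control MZ cells. In FO cells the most abundant was Calr, the lectin chaperone calreticulin, at 296 CPM per kb. Sdc1 (CD138, a surface proteoglycan of plasma cells) was the lowest in MZ cells, at 0.177 CPM per kb in deficient and 0.213 CPM per kb in control cells. Prdm1 stood at 1.37 CPM per kb in deficient MZ, 1.76 CPM per kb in control MZ and 0.273 CPM per kb in FO cells. The 40 genes together took 0.942% to 1.02% of all counts in deficient MZ libraries, 0.910% to 0.958% in control MZ libraries and 0.519% to 0.646% in FO libraries.

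**Figure D2:**
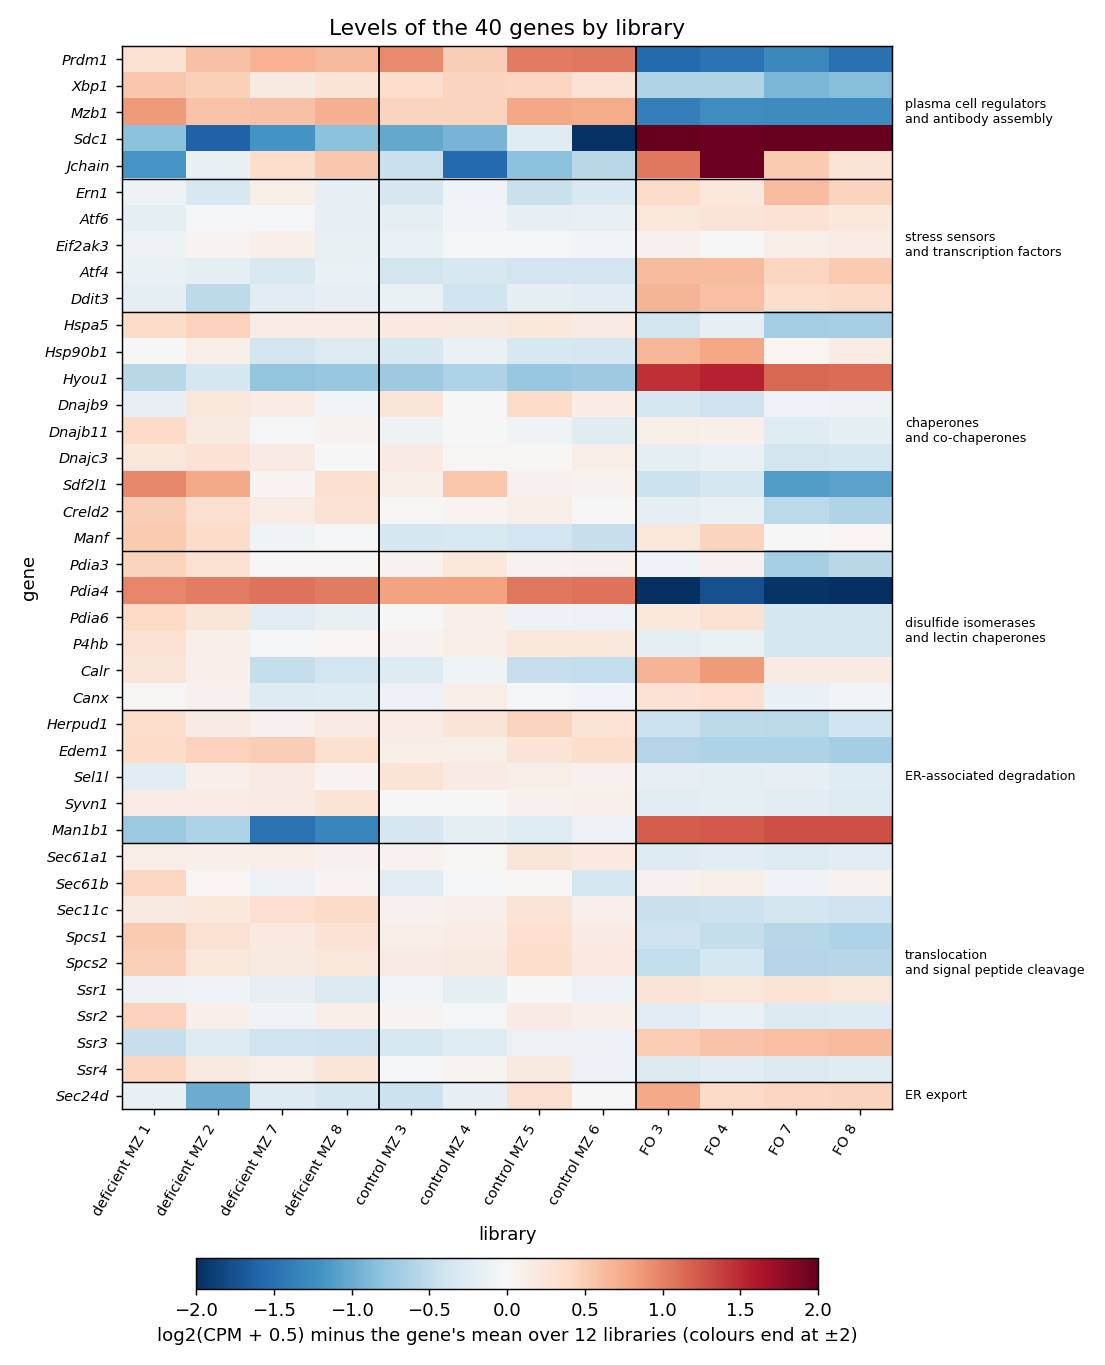
Levels of the 40 genes in the 12 libraries, as log2(CPM + 0.5) minus the gene's mean over the 12 libraries, with genes ordered by role and colours ending at ±2. The FO columns differ from the 8 MZ columns in most rows, while the deficient and control MZ columns look alike apart from a few rows such as Man1b1 and Manf.

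Between deficient and control MZ cells, few of these genes differed by more than the spread between libraries. Of the 40, 1 rose (Manf), 1 fell (Man1b1) and 38 did not pass the test (adjusted p under 0.05, edgeR quasi-likelihood test with Benjamini-Hochberg adjustment over 13987 genes). Over all tested genes 3.7% passed, 2.29% higher and 1.4% lower, and 2 of 40 is near that background. The median log2 fold change was 0.08 over the 40 genes and -0.0037 over all genes, and 26 of the 40 lay above 0. Deficient and control libraries did not overlap for 5 of the 40 genes (Manf, Man1b1, Atf4, Creld2 and Syvn1), against 11.9% of all tested genes. The authors' deposited table has 2 of the 40 higher and 1 lower. Some markers of other cells were higher in deficient cells too. Of the 2 FO markers Klf2 rose and Fcer2a did not pass, with log2 fold changes of 1.62 and -0.089 in the authors' deposited table. Fcer2a and Klf2 together summed to 228 to 314 CPM in deficient and 113 to 203 CPM in control libraries. Since the 2 genes did not move one way, this sum does not stand for both. Of the T cell markers Cd8a and Tcf7 rose, and the 7 T cell markers summed to 39.5 to 45.7 CPM in deficient and 37.1 to 48.4 CPM in control libraries. Of 6 macrophage and monocyte markers tested, Adgre1 rose and no other passed. Only 2 of these 6 had a log2 fold change above 0, and their median was -0.08. All 7 macrophage and monocyte markers summed to 48.6 to 82.9 CPM in deficient and 51.6 to 70.6 CPM in control libraries. Of the erythroid markers Hbb-bt rose, and the 4 erythroid markers reported here summed to 5.13 to 16.5 CPM in deficient and 1.11 to 6.81 CPM in control libraries. Of the 4 platelet markers 0 passed, and they summed to 7.32 to 15.2 CPM in deficient and 10.6 to 18.2 CPM in control libraries. Their part in the results below was not tested.

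Manf encodes a small secreted protein that binds BiP and is induced by ER stress (chr9:106838312-106891979, minus strand, GRCm38; ENSMUSG00000032575). It had 81.6, 73.1, 53.5 and 54.99 CPM in deficient replicates 1, 2, 7 and 8, against 44.1, 45.9, 43.6 and 41.1 CPM in control replicates 3, 4, 5 and 6. All 4 deficient libraries lay above all 4 control libraries, with replicates 1 and 2 higher than replicates 7 and 8. Manf averaged 65.8 ± 13.8 CPM in deficient and 43.7 ± 1.98 CPM in control MZ cells (SD, n = 4 each; log2 fold change 0.58, SE 0.12, adjusted p = 0.0145). Under the alternatives tried, its log2 fold change ran from 0.46 to 0.67 and its adjusted p from 2.84e-04 to 0.0475, so it passed in all 14. Genes on the opposite strand overlap 8.85% of its exonic bases, and how strand was handled in the counting is not stated in the labels.

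Man1b1 encodes the ER mannosidase that trims a mannose from glycoproteins, a step towards their degradation (chr2:25332338-25352212, plus strand, GRCm38; ENSMUSG00000036646). It had 26.2, 28.8, 15.6 and 17.7 CPM in deficient replicates 1, 2, 7 and 8, against 34.98, 38.97, 37.4 and 40.8 CPM in control replicates 3 to 6. All 4 deficient libraries lay below all 4 control libraries, and here replicates 7 and 8 were farthest from the controls. Man1b1 averaged 22.1 ± 6.42 CPM in deficient and 38.04 ± 2.47 CPM in control MZ cells (SD, n = 4 each; log2 fold change -0.80, SE 0.16, adjusted p = 0.0128). It passed in all 14 alternatives, with a log2 fold change from -0.95 to -0.66 and an adjusted p from 1.01e-04 to 0.0433. In the authors' deposited table, the log2 fold change was -0.59 for Man1b1 and 0.49 for Manf.

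The plasma cell regulators did not pass the test in deficient MZ cells. Xbp1, the transcription factor that expands the secretory pathway, had 223, 215, 174 and 186 CPM in deficient and 195, 209.7, 206 and 189 CPM in control libraries. These ranges overlapped, and the estimate was near 0 with a narrow error (log2 fold change -0.01, SE 0.081, adjusted p = 0.947). Prdm1, which encodes the Blimp-1 repressor that drives plasma cell fate, had 6.30, 7.80, 8.44 and 8.14 CPM in deficient and 10.1, 7.26, 10.9 and 10.96 CPM in control libraries. Control replicate 4 was the only control within the deficient range (log2 fold change -0.36, SE 0.15, adjusted p = 0.203). Mzb1 averaged 655 ± 59.4 CPM in deficient and 622 ± 76.6 CPM in control cells (SD, n = 4 each; log2 fold change 0.07, SE 0.089, adjusted p = 0.728).

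Jchain, whose protein links IgM and IgA into polymers, had 0.761, 2.10, 3.18 and 3.65 CPM in deficient replicates 1, 2, 7 and 8, against 1.61, 0.482, 1.12 and 1.45 CPM in control replicates 3 to 6. Deficient replicates 2, 7 and 8 lay above every control, and deficient replicate 1 lay among them (log2 fold change 1.04, SE 0.42, adjusted p = 0.197). Without deficient replicate 1 the log2 fold change was 1.34 and passed (adjusted p = 0.0448, edgeR); over the alternatives the adjusted p ran up to 0.415. Sdc1 had 0.908, 0.307, 0.581 and 0.897 CPM in deficient and 0.717, 0.803, 1.60 and 0.127 CPM in control libraries. No MZ library went above 1.60 CPM, and its error was the widest of the 40 genes (log2 fold change -0.29, SE 0.53, adjusted p = 0.813).

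None of the 5 stress sensors and transcription factors passed the test in deficient cells. Atf4, the transcription factor made when PERK slows translation, had 141, 136, 125 and 141 CPM in deficient and 120.4, 124, 119 and 119 CPM in control libraries. The groups did not overlap, yet the gene missed the threshold (log2 fold change 0.16, SE 0.064, adjusted p = 0.185). Ern1 had 10.6, 9.11, 12.5 and 10.2 CPM in deficient and 8.97, 10.8, 8.29 and 9.18 CPM in control libraries, with overlapping ranges (log2 fold change 0.18, SE 0.13, adjusted p = 0.498). Atf6 averaged 117 ± 6.94 CPM in deficient and 114 ± 4.95 CPM in control cells, and Eif2ak3 averaged 139 ± 11.6 CPM in deficient and 136 ± 4.32 CPM in control cells (SD, n = 4 each). Their log2 fold changes were 0.03 (SE 0.069) for Atf6 and 0.03 (SE 0.072) for Eif2ak3. Ddit3, the stress factor CHOP, averaged 12.97 ± 1.54 CPM in deficient and 13.3 ± 1.05 CPM in control cells (log2 fold change -0.04, SE 0.11, adjusted p = 0.877).

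Among the 9 chaperones and co-chaperones, Manf alone passed. Of the 9 log2 fold changes 8 lay above 0, with a median of 0.15, against -0.0037 over all tested genes. Hsp90b1, Hyou1, Dnajc3, Sdf2l1, Creld2 and Manf varied with Hspa5 from library to library, as described below. These signs are therefore not separate observations. Hspa5 had 979.95, 1049.8, 847 and 842 CPM in deficient and 871, 866, 883 and 854 CPM in control libraries. Deficient replicates 1 and 2 lay above all controls and replicates 7 and 8 below all of them, so the groups overlapped (log2 fold change 0.09, SE 0.076, adjusted p = 0.567). Creld2, an ER protein with disulfide isomerase activity that stress induces, had 49.5, 43.8, 38.8 and 42.9 CPM in deficient and 35.7, 36.5, 38.01 and 35.2 CPM in control libraries. The 2 groups did not overlap, and the gene missed the threshold in edgeR (log2 fold change 0.26, SE 0.08, adjusted p = 0.0961) but passed in DESeq2 (adjusted p = 0.0412). Sdf2l1, a partner of BiP, averaged 39.00 ± 11.1 CPM in deficient and 30.6 ± 5.30 CPM in control cells (SD, n = 4 each; log2 fold change 0.34, SE 0.17, adjusted p = 0.295). Dnajb11, which brings clients to BiP, averaged 136 ± 16.6 CPM in deficient and 113 ± 7.39 CPM in control cells (log2 fold change 0.26, SE 0.086, adjusted p = 0.111).

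No disulfide isomerase or lectin chaperone (0 of 6) and no translocation or signal peptidase gene (0 of 9) passed in deficient cells. Pdia4 had 1742, 1799, 1882 and 1807 CPM in deficient and 1548, 1543, 1826 and 1884 CPM in control libraries (log2 fold change 0.08, SE 0.077, adjusted p = 0.616). The 6 log2 fold changes of the isomerases and lectin chaperones ran from -0.09 (Canx) to 0.21 (Calr). Those of the 9 translocation genes ran from -0.19 (Ssr3, of the translocon-associated complex) to 0.24 (Sec61b, of the Sec61 channel). Beside Man1b1, the degradation genes ran from -0.14 (Sel1l) to 0.19 (Edem1, which recognises trimmed glycoproteins). Syvn1, the ubiquitin ligase HRD1, had 473, 472, 478 and 515 CPM in deficient and 422, 422, 452 and 457 CPM in control libraries, without overlap (log2 fold change 0.13, SE 0.063, adjusted p = 0.264). Sel1l, Dnajb9, Pdia6 and Sdc1 lie on chromosome 12, as Zfp36l1 does, at 11.69 to 71.31 Mb from it, and none of the 4 passed. Edem1, Sec61a1, Eif2ak3 and Pdia4 lie on chromosome 6, as Gt(ROSA)26Sor does, at 4.208 to 65.25 Mb from it, and none of these passed either. The locus that carries ERT2cre is not given in the labels. Sec24d, a cargo adaptor of COPII coats, averaged 3.04 ± 0.827 CPM in deficient and 4.03 ± 0.984 CPM in control cells (log2 fold change -0.41, SE 0.23, adjusted p = 0.357).

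**Figure D3:**
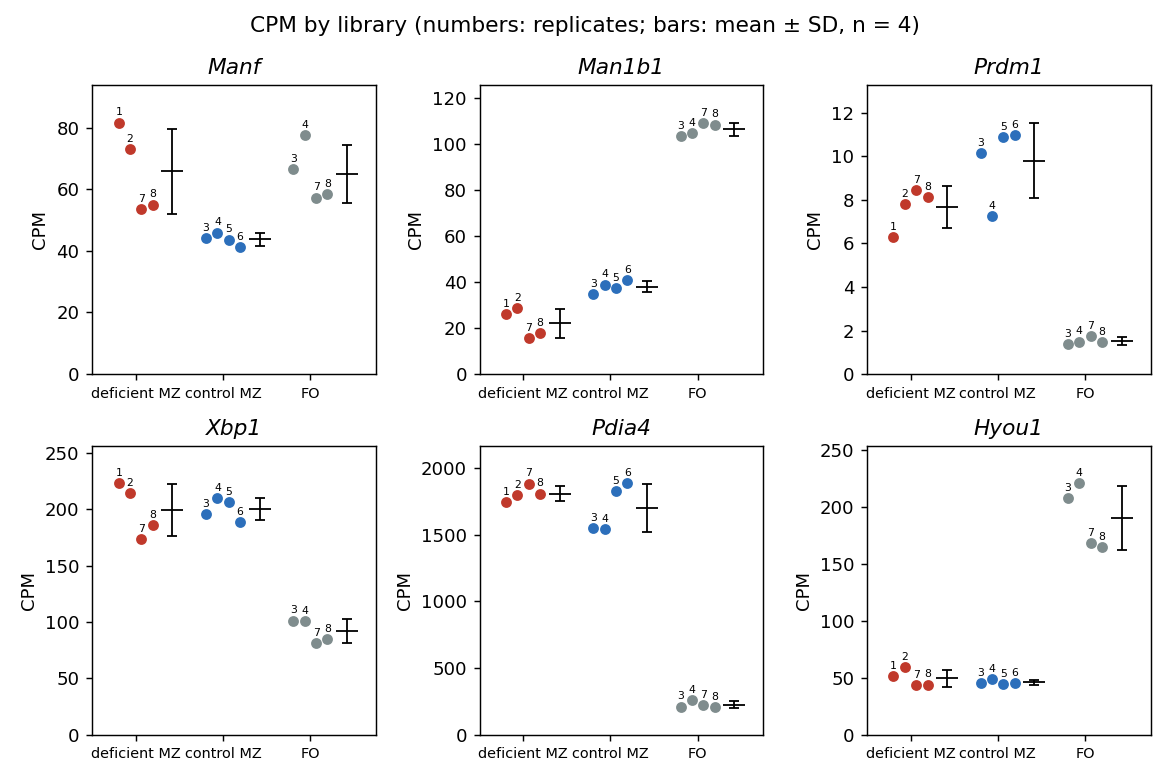
CPM of Manf, Man1b1, Prdm1, Xbp1, Pdia4 and Hyou1 in each library of deficient MZ, control MZ and FO cells, with replicate numbers beside the points and bars for mean ± SD (n = 4). The deficient points lie above the control points for Manf and below them for Man1b1, and the FO points lie apart from the control MZ points for all 6 genes.

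Secretory genes outside the 40 passed the test about as often as all genes did in deficient cells. In 6 lists of such genes (16 other translocon, 12 oligosaccharyltransferase, 22 other folding, 16 other degradation, 27 ER to Golgi transport and 24 integrated stress response genes), 110 of 117 genes were tested, 3 rose and 2 fell. That is 4.55%, near the 3.7% of all tested genes. Fkbp11, a prolyl isomerase of secretory tissue, had 1.67, 1.26, 1.93 and 2.02 CPM in deficient and 0.618, 0.536, 0.478 and 0.765 CPM in control libraries (log2 fold change 1.51, SE 0.28, adjusted p = 0.00891). Ero1lb, an oxidase that recharges disulfide isomerases, averaged 284 ± 10.04 CPM in deficient and 224 ± 8.86 CPM in control cells (log2 fold change 0.34, SE 0.063, adjusted p = 0.0103). Mthfd2, a mitochondrial folate enzyme and ATF4 target, averaged 28.1 ± 3.75 CPM in deficient and 19.7 ± 0.666 CPM in control cells (log2 fold change 0.50, SE 0.10, adjusted p = 0.0127). Tmed10, a cargo receptor of transport vesicles, had 89.5, 86.96, 79.5 and 84.3 CPM in deficient and 119, 122, 134 and 130.4 CPM in control libraries (log2 fold change -0.58, SE 0.066, adjusted p = 0.000216). All 4 deficient libraries lay below all 4 controls. Dnajc10, a reductase of the ER, averaged 95.3 ± 2.04 CPM in deficient and 117 ± 9.29 CPM in control cells (log2 fold change -0.30, SE 0.068, adjusted p = 0.0246).

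Of 19 genes of the plasma cell programme outside the 40, 16 were tested, 3 rose and 1 fell in deficient cells, beside 2.29% higher and 1.4% lower over all tested genes. The 3 that rose were Cxcr4, a homing receptor of plasma cells, and the antibody constant genes Ighg2b and Ighg3. Ighg3 had 30.2, 27.5, 35.1 and 35.7 CPM in deficient and 15.1, 14.5, 13.7 and 17.8 CPM in control libraries (log2 fold change 1.06, SE 0.11, adjusted p = 0.000136). Ighg2b had 25.9, 16.2, 21.1 and 19.7 CPM in deficient and 11.3, 8.36, 4.61 and 5.07 CPM in control libraries (log2 fold change 1.49, SE 0.24, adjusted p = 0.00331). The log2 fold change of Cxcr4 was 1.30 (SE 0.19, adjusted p = 0.00168). Irf4, a transcription factor that plasma cells need, fell, with 116, 130.1, 131 and 114 CPM in deficient and 172, 170.2, 177 and 179.6 CPM in control libraries (log2 fold change -0.52, SE 0.068, adjusted p = 0.00085). Of 9 repressors of plasma cell fate, Irf8 alone passed and was higher (log2 fold change 0.37, SE 0.074, adjusted p = 0.0145). The 10 plasma cell markers summed to 268 to 295 CPM in deficient and 227 to 275 CPM in control libraries. Txndc5 alone averaged 186 CPM in deficient and 164 CPM in control cells. Of 8 of these markers tested, 2 rose (Fkbp11 and Ighg2b, given above) and 0 fell. Log2 fold changes lay above 0 for 7 of the 8, with a median of 0.95, against -0.0037 over all tested genes. The part of plasma cells in these values was not tested.

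Because ZFP36L1 binds AU-rich sequence, the heptamer TATTTAT was counted in the longest 3′ UTR that GENCODE M21 gives each of the 40 genes. The heptamer was found in 11 of the 40 (27.5%), against 3335 of 11427 tested genes with a 3′ UTR (29.2%). Neither Manf nor Man1b1 held it. The median log2 fold change in deficient over control cells was 0.03 in the 11 genes with the heptamer and 0.09 in the 29 without. Prdm1 held 4 heptamers and Ern1 held 3, the most among the 40, and neither passed the test above. They are shown for their neighbourhood, with 10 bases on each side and the heptamer in capitals, by the base of the UTR at which it begins.
Prdm1 3′ UTR, from base 1456 (chromosome 10, GRCm38): gaatgctgtaTATTTATgaacctattt
Prdm1 3′ UTR, from base 1468 (chromosome 10, GRCm38): tttatgaaccTATTTATaccagtatac
Prdm1 3′ UTR, from base 1502 (chromosome 10, GRCm38): atatatgataTATTTATaaccacttaa
Prdm1 3′ UTR, from base 2440 (chromosome 10, GRCm38): tttacattgtTATTTATgtgcaaattg
Ern1 3′ UTR, from base 3380 (chromosome 11, GRCm38): tgcaatgacaTATTTATtgaatctatt
Ern1 3′ UTR, from base 3393 (chromosome 11, GRCm38): ttattgaatcTATTTATatttatttaa
Ern1 3′ UTR, from base 3399 (chromosome 11, GRCm38): aatctatttaTATTTATttaattttta
The first 2 heptamers of Prdm1 lie close together, and the last 2 of Ern1 overlap by 1 base. A heptamer is a letter match, and binding was not measured here.

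Control MZ cells differed from FO cells in most of these genes. Of the 40, 21 were higher and 15 lower in control MZ cells, and 4 did not pass (Dnajb11, Pdia6, Canx and Sec61b). Over all 13843 tested genes 81.5% passed, 42.6% higher and 38.8% lower, so 36 of 40 stands beside a background that most genes meet. Control MZ and FO libraries did not overlap for 35 of the 40, against 76.9% of all tested genes. The median log2 fold change was 0.29 over the 40 and 0.05 over all genes. Cell type, genotype and, by the design text, kit and read layout all differ between these libraries and cannot be told apart, although the extraction protocol names the same kit for every sample. Of the 4 platelet markers all 4 were higher in control MZ cells, and they summed to 10.6 to 18.2 CPM in control MZ and 3.25 to 3.99 CPM in FO libraries. Their part in these results was not tested. With an absolute log2 fold change of at least 1, 4 of the 40 were higher (background 20.3%) and 4 lower (background 19.3%).

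The plasma cell regulators split. Prdm1 had 10.1, 7.26, 10.9 and 10.96 CPM in control MZ libraries and 1.38, 1.49, 1.76 and 1.46 CPM in FO libraries (log2 fold change 2.69, SE 0.17, adjusted p = 1.57e-08). Xbp1 averaged 200.03 ± 9.77 CPM in control MZ and 92.1 ± 10.7 CPM in FO cells (SD, n = 4 each; log2 fold change 1.13, SE 0.078, adjusted p = 4.5e-08). Mzb1 averaged 622 ± 76.6 CPM in control MZ and 167 ± 6.94 CPM in FO cells (log2 fold change 1.90, SE 0.078, adjusted p = 3.74e-10). These 3 genes were higher in every control MZ library than in any FO library, and the groups did not overlap for 76.9% of all tested genes.

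Jchain and Sdc1 went the other way. Jchain had 1.61, 0.482, 1.12 and 1.45 CPM in control MZ replicates 3 to 6 and 5.46, 10.7, 3.62 and 2.98 CPM in FO replicates 3, 4, 7 and 8 (log2 fold change -2.27, SE 0.43, adjusted p = 0.000357). FO replicate 4 held the highest level, and it also held the most Adgre1, a macrophage marker, at 17.9 CPM against 5.52, 8.51 and 9.17 CPM in FO replicates 3, 7 and 8. Adgre1 is 1 of 7 macrophage and monocyte markers, and the others are not given here for each FO library. The 7 macrophage and monocyte markers summed to 51.6 to 70.6 CPM in control MZ libraries and 36.7 to 130 CPM in FO libraries. These markers did not move one way: in control MZ cells 3 of the 7 were higher, 1 was lower and 3 did not pass. In the authors' deposited table, the log2 fold change (control MZ over FO) was -2.42 for Adgre1. It was 2.89 for Lyz2, 2.53 for Csf1r and 0.58 for Cd68. The part of these markers in Jchain was not tested. Sdc1 had 0.717, 0.803, 1.60 and 0.127 CPM in control MZ and 10.6, 9.18, 11.3 and 11.1 CPM in FO libraries (log2 fold change -3.67, SE 0.39, adjusted p = 2.32e-06). The 10 plasma cell markers summed to 227 to 275 CPM in control MZ and 390 to 441 CPM in FO libraries. Txndc5, 1 of the 10, averaged 164 ± 15.7 CPM in control MZ and 272 ± 11.6 CPM in FO cells. Of 8 markers tested 7 were lower, beside 38.8% of all tested genes. The other, Derl3, was higher, at 9.72 ± 1.97 CPM in control MZ and 2.95 ± 1.13 CPM in FO cells (log2 fold change 1.73, SE 0.24). The part of plasma cells in Jchain and Sdc1 was not tested.

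All 5 stress sensors and transcription factors were lower in control MZ cells, with no overlap against FO libraries for any of them. Over all tested genes, 38.8% were lower and 76.9% did not overlap. Atf4 averaged 121 ± 2.66 CPM in control MZ and 228 ± 14.6 CPM in FO cells (SD, n = 4 each; log2 fold change -0.91, SE 0.055, adjusted p = 1.37e-08). Ddit3 averaged 13.3 ± 1.05 CPM in control MZ and 22.5 ± 2.56 CPM in FO cells (log2 fold change -0.75, SE 0.10, adjusted p = 1.61e-05), and Ern1 averaged 9.32 ± 1.08 CPM in control MZ and 15.5 ± 1.92 CPM in FO cells (log2 fold change -0.72, SE 0.12, adjusted p = 9.73e-05). Atf6 had 109.9, 121, 113 and 114 CPM in control MZ and 147, 150.3, 154 and 146 CPM in FO libraries (log2 fold change -0.37, SE 0.048, adjusted p = 1.36e-05). The smallest difference was that of Eif2ak3, at 136 ± 4.32 CPM in control MZ and 151 ± 6.40 CPM in FO cells (log2 fold change -0.14, SE 0.047, adjusted p = 0.0153). It missed the threshold with the stricter filter (adjusted p = 0.057, edgeR), and its adjusted p ran from 0.00577 to 0.178 over the alternatives.

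The chaperones were mixed, 5 of 9 higher and 3 lower. Hspa5 had 871, 866, 883 and 854 CPM in control MZ and 587, 682, 470.2 and 481 CPM in FO libraries (log2 fold change 0.66, SE 0.10, adjusted p = 8.14e-05). Sdf2l1 averaged 30.6 ± 5.30 CPM in control MZ and 15.9 ± 4.50 CPM in FO cells (log2 fold change 0.96, SE 0.18, adjusted p = 0.000379). Hyou1, an ER chaperone that helps BiP exchange its nucleotide, went the other way, with 45.1, 49.2, 44.3 and 45.3 CPM in control MZ and 208, 220.3, 168 and 164 CPM in FO libraries (log2 fold change -2.04, SE 0.10, adjusted p = 1.32e-09). Hsp90b1 (GRP94), the ER form of HSP90, averaged 411 ± 27.3 CPM in control MZ and 676 ± 170.3 CPM in FO cells (log2 fold change -0.71, SE 0.15, adjusted p = 0.000664). Hspa5 and Hsp90b1 thus differed in opposite directions. Manf averaged 43.7 ± 1.98 CPM in control MZ and 64.96 ± 9.36 CPM in FO cells and was lower in control MZ cells (log2 fold change -0.56, SE 0.091, adjusted p = 9.87e-05). Dnajb9, Dnajc3 and Creld2 were higher, with log2 fold changes of 0.44, 0.35 and 0.41, and Dnajb11 stood at -0.06 (SE 0.086).

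Pdia4 was the isomerase that stood out. It had 1548, 1543, 1826 and 1884 CPM in control MZ replicates 3 to 6 and 212, 260.4, 226 and 206 CPM in FO replicates 3, 4, 7 and 8 (log2 fold change 2.92, SE 0.095, adjusted p = 5.21e-11). The lowest control MZ library held several times the highest FO library, and 12.3% of tested genes had an absolute log2 fold change as large. Pdia3, the partner of the lectin chaperones, averaged 405 ± 21.4 CPM in control MZ and 309.95 ± 77.6 CPM in FO cells (log2 fold change 0.40, SE 0.14, adjusted p = 0.0204). Its groups overlapped, and its adjusted p was 0.0555 without control MZ replicate 4, 0.0534 without FO replicate 7 and 0.0639 without FO replicate 8. P4hb, the founding disulfide isomerase, averaged 253 ± 11.1 CPM in control MZ and 191 ± 14.3 CPM in FO cells (log2 fold change 0.42, SE 0.06, adjusted p = 3.57e-05). Calr was lower in control MZ cells, at 483 ± 64.2 CPM against 851 ± 208 CPM in FO cells (log2 fold change -0.81, SE 0.15, adjusted p = 0.000371). Pdia6 and Canx did not pass, with log2 fold changes of -0.0025 (SE 0.14) and -0.13 (SE 0.10).

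Of the 5 degradation genes, 4 were higher in control MZ cells and Man1b1 was lower, beside 42.6% higher and 38.8% lower over all tested genes. Edem1 averaged 314 ± 25.5 CPM in control MZ and 175 ± 4.46 CPM in FO cells (SD, n = 4 each; log2 fold change 0.85, SE 0.058, adjusted p = 3.92e-08). Herpud1, a stress-induced scaffold of the degradation complex, averaged 164 ± 14.6 CPM in control MZ and 96.3 ± 4.69 CPM in FO cells (log2 fold change 0.78, SE 0.063, adjusted p = 1.87e-07). Sel1l and Syvn1, the core of the HRD1 ligase, had log2 fold changes of 0.36 (SE 0.053) and 0.28 (SE 0.048). Man1b1 had 34.98, 38.97, 37.4 and 40.8 CPM in control MZ and 103, 105, 109 and 109 CPM in FO libraries (log2 fold change -1.48, SE 0.056, adjusted p = 1.87e-10). Its order over the 3 groups was therefore deficient MZ lowest, control MZ next and FO highest, without overlap between neighbours.

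The signal peptidase genes were higher together in control MZ cells, where 42.6% of all tested genes were higher. Spcs1 averaged 84.2 ± 5.86 CPM in control MZ and 51.3 ± 3.40 CPM in FO cells (log2 fold change 0.72, SE 0.063, adjusted p = 3.73e-07). Spcs2 averaged 187 ± 11.8 CPM in control MZ and 113 ± 8.51 CPM in FO cells (log2 fold change 0.74, SE 0.063, adjusted p = 2.82e-07), and Sec11c, the catalytic subunit, averaged 284 ± 16.3 CPM in control MZ and 193 ± 4.77 CPM in FO cells (log2 fold change 0.57, SE 0.048, adjusted p = 2.8e-07). The 4 subunits of the translocon-associated complex did not move one way. Ssr2 and Ssr4 were higher, with log2 fold changes of 0.31 and 0.30, and Ssr1 and Ssr3 were lower, at -0.32 and -0.77. Sec61a1, the channel itself, was higher (log2 fold change 0.39, SE 0.051), and Sec61b did not pass (log2 fold change -0.18, SE 0.081, adjusted p = 0.0636), though it did in 5 of 15 alternatives, with an adjusted p down to 0.0248. Sec24d was lower in control MZ cells, at 4.03 ± 0.984 CPM against 6.17 ± 0.851 CPM in FO cells (log2 fold change -0.60, SE 0.18, adjusted p = 0.00757).

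**Figure D4:**
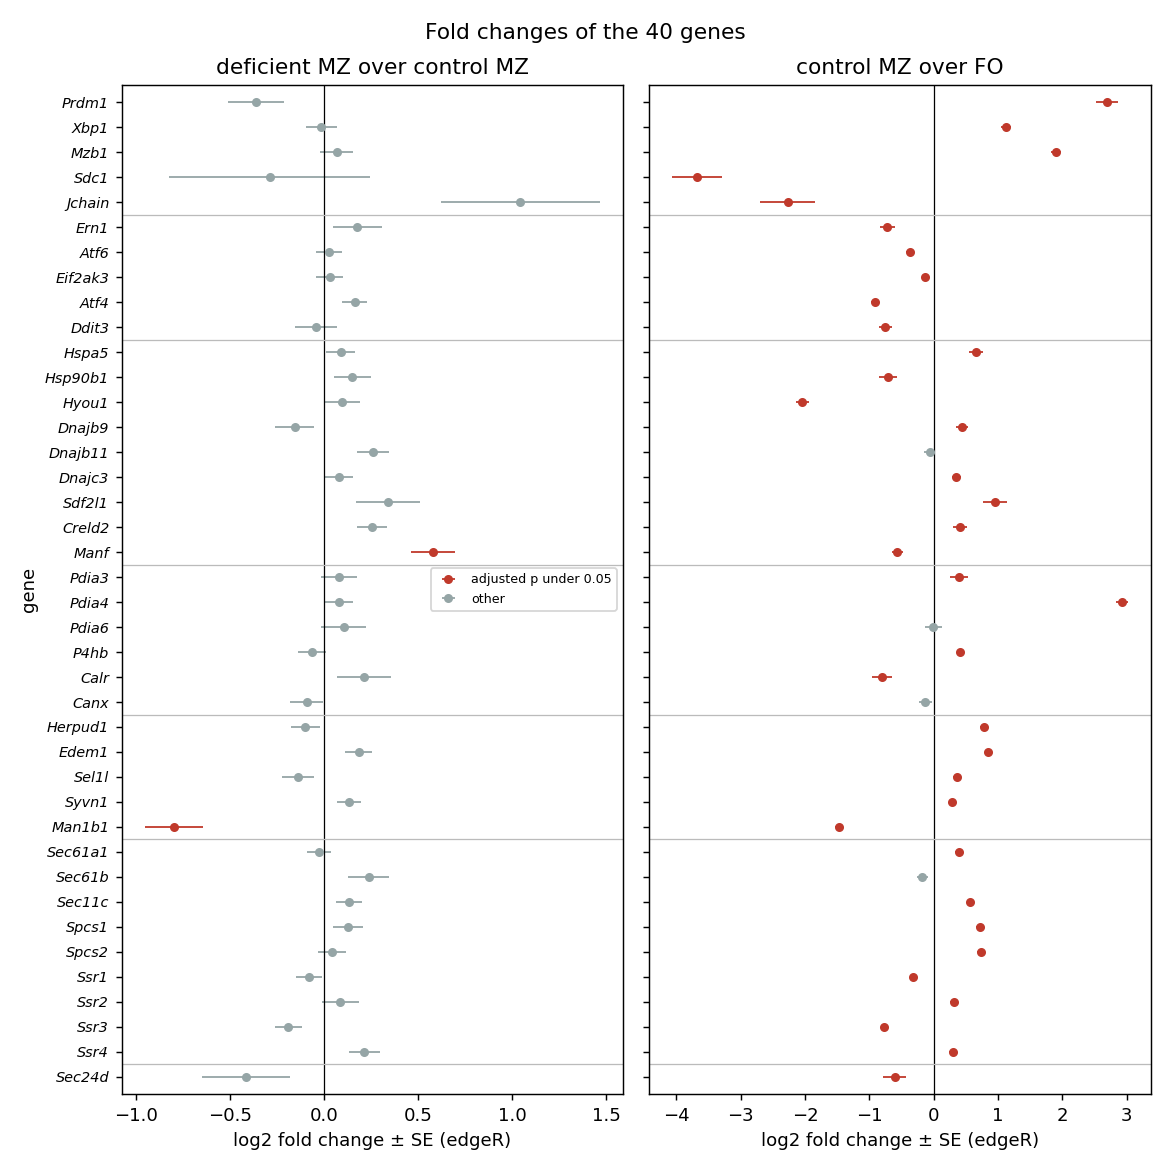
Log2 fold changes ± SE (edgeR) of the 40 genes, for deficient MZ over control MZ on the left and control MZ over FO on the right, with genes at adjusted p under 0.05 in red and the others in grey. On the left Manf (0.58) and Man1b1 (-0.80) are red, and on the right 36 genes are red, from Sdc1 at -3.67 to Pdia4 at 2.92. The 2 panels share the control MZ libraries.

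In lists outside the 40, the direction was mixed as well, and 95 of 110 genes in the 6 secretory lists passed (86.4%, beside 81.5% of all tested genes). Of 12 oligosaccharyltransferase genes, which attach sugar chains to proteins entering the ER, 8 were higher and 4 lower in control MZ cells. Ddost had a log2 fold change of 1.09 (SE 0.06) and Ost4 of -2.90 (SE 0.08). Of 21 other folding genes tested, 9 were higher and 10 lower, with Sil1 at 1.67 and Ppib at -2.68. Exons on the opposite strand cover 53.2% of the exonic bases of Ost4 and 24.96% of those of Ppib. Of 9 repressors of plasma cell fate, 0 were higher and 6 lower in control MZ cells, beside 42.6% higher and 38.8% lower over all tested genes. Bcl6 averaged 28.5 ± 1.17 CPM in control MZ and 186 ± 14.6 CPM in FO cells (log2 fold change -2.69, SE 0.064, adjusted p = 4.22e-12). Pax5 averaged 42.6 ± 10.4 CPM in control MZ and 267 ± 7.64 CPM in FO cells (log2 fold change -2.64, SE 0.15, adjusted p = 6.94e-09), and Bach2 averaged 34.1 ± 6.79 CPM in control MZ and 307 ± 31.1 CPM in FO cells (log2 fold change -3.16, SE 0.13, adjusted p = 3.4e-10).

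Within groups, a set of the chaperone genes was high or low in the same libraries. For each gene, the deviation of log2(CPM + 0.5) from its group mean was taken in the 12 libraries, and its correlation with that of Hspa5 is given as a description. Of the other 39 genes, 11 had r of at least 0.8: Hsp90b1 (0.95), Pdia3 (0.93), Hyou1 (0.92), Canx (0.90), Pdia6 (0.90), Calr (0.87), Xbp1 (0.86), Creld2 (0.85), Manf (0.85), Sdf2l1 (0.83) and Dnajc3 (0.81). Spearman's rho of these 11 ran from 0.82 to 0.94. Of 11743 genes with a mean of at least 1 CPM, 0.664% reached that value. The 12 points share their library preparation and depth within each library, and members of a group lean on 1 mean. FO replicates 4 and 7 were the 2 libraries whose Hspa5 deviations lay farthest from the median deviation. Without them 8 members reached 0.8, against 0.485% of all genes. The deviations of the other FO libraries were still taken from the mean that includes these 2. In the 8 MZ libraries alone 8 members reached it, against 1.58% of all genes. They were 7 of the 11 and Man1b1 (0.92, against 0.42 over the 12 libraries), while Calr (0.79), Sdf2l1 (0.74), Dnajc3 (0.68) and Creld2 (0.60) lay below it.

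The set was picked by this threshold, so the values below only describe which libraries were high. Hsp90b1 had 499, 539, 387 and 413 CPM in deficient replicates 1, 2, 7 and 8, 399.6, 452, 400.1 and 392.34 CPM in control replicates 3 to 6, and 787, 854, 511 and 549.98 CPM in FO replicates 3, 4, 7 and 8. Calr had 717, 646, 432 and 461 CPM in deficient, 499, 567, 438 and 428 CPM in control MZ and 964, 1088, 675 and 678 CPM in FO libraries. Sdf2l1 had 51.5, 44.6, 27.1 and 32.7 CPM in deficient, 28.5, 38.5, 27.8 and 27.5 CPM in control MZ and 19.2, 20.3, 11.8 and 12.2 CPM in FO libraries. In these 3 genes deficient replicates 1 and 2 lay above 7 and 8, control replicate 4 above the other controls, and FO replicates 3 and 4 above 7 and 8. Not all members shared this: 11 of the 40 had r below 0, among them Ern1 (-0.70), Sec11c (-0.49), Dnajb9 (-0.41) and Prdm1 (-0.29). Deficient replicate 1 held the highest deficient level for 19 of the 40 genes, against 35.6% of all genes, and FO replicate 4 the highest FO level for 21, against 27.4%.

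**Figure D5:**
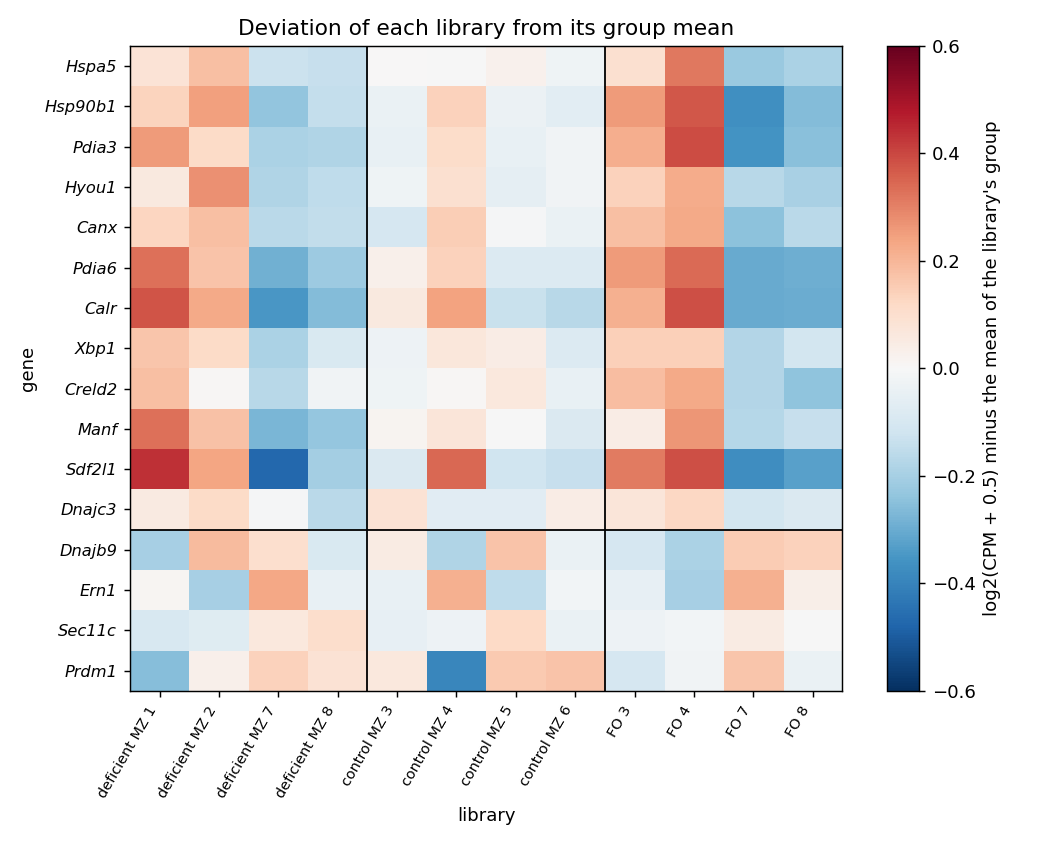
Deviation of each library from the mean of its group, in log2(CPM + 0.5), for Hspa5 and the 11 genes with r of at least 0.8 (above the line) and for Dnajb9, Ern1, Sec11c and Prdm1 (below it). Above the line deficient replicates 1 and 2 and FO replicates 3 and 4 are red in nearly every row, and deficient replicates 7 and 8 and FO replicates 7 and 8 are blue.

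Genes outside the 40 that followed Hspa5 most closely were Hsp90aa1 (0.96) and Hsp90ab1 (0.95), the cytosolic HSP90 chaperones, and St13 (0.94), Gm42418 (0.94) and Stip1 (0.92). St13 and Stip1 are co-chaperones of the cytosol, and Gm42418 is a gene model of which 99.5% of exonic bases overlap an exon on the opposite strand. Hsp90aa1 had 306, 303, 239 and 242 CPM in deficient, 263, 250.1, 247 and 233 CPM in control MZ and 316, 363, 257 and 263 CPM in FO libraries. Gm42418 had 1468, 1435, 1048 and 1050.2 CPM in deficient, 1498, 1659, 1714 and 1419 CPM in control MZ and 6923, 8036, 4489 and 3837 CPM in FO libraries. Whether a technical difference between libraries has a part in this pattern was not tested. The stress element printed above was found in 7 of the 10 genes with a RefSeq promoter among Hspa5 and the 11 that followed it. It was found in 1 of the 23 with a promoter among the other 28 genes, that gene being Syvn1 (0.09). With 1 mismatch allowed, the counts were 8 of 10 and 5 of 23. Hspa5 itself is among the 7 and among the 8. Since Hspa5, the limit on r and the motifs were chosen after values were seen, these counts only describe the genes. A part of the element in the pattern was not tested.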

How the data were processed

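Gene expression of sorted splenic B cells from mice was measured by RNA sequencing. The submitters' processing notes name Trim Galore, TopHat2 2.0.12, HTSeq, DESeq2 1.10.1 and build GRCm38, while annotation release and strand setting are not given in sources used here. The authors deposited raw counts, which are whole numbers for each Ensembl ID with a column for each of the 12 libraries, none of them pooled. The log2 fold changes and adjusted p-values of the authors' deposited tables are quoted only where named. Of 43629 genes, 19338 had no counts, and 42548 IDs matched GENCODE M21 (GRCm38). For the FO libraries the labels conflict: the extraction protocol gives SMARTer for every sample and the design text gives TruSeq.

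Raw counts were tested with edgeR 4.0.16 in R 4.3.3 (quasi-likelihood test, TMM scaling, default low-count filter). Each fit used only the 8 libraries compared, and p-values were adjusted by Benjamini-Hochberg over all tested genes. Biological coefficients of variation were 0.123 (MZ comparison) and 0.104 (control MZ against FO). CPM levels use 1 TMM scale over the 12 libraries, and levels per kilobase divide CPM by merged exon length. Alternatives were DESeq2 1.42.0, its size factors in edgeR, leaving out 338 immunoglobulin genes, no filter, a filter of 1 CPM in 4 libraries, a fit over 12 libraries, leaving out each library, and a replicate block. The scripts were tested on simulated counts. Among the 40, exons on the opposite strand overlap most with Spcs1 (16.3% of exonic bases), Ssr2 (12.8%) and Hsp90b1 (10.3%).

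Replicates exceeded sampling noise in their differences (5.78 to 48.6 as chi-square for each gene), and no columns were identical. Since the labels do not state that replicates are separate animals, p-values measure only the spread between these libraries, which may be technical. The members and gene lists were chosen with earlier results of these data known. All 40 members are accounted for, with values by library for called genes and regulators, and up to 4 genes with the smallest p are named from each other list. Hspa5 as the gene for comparison, r of at least 0.8, the minimum of 1 CPM, the log2 limit of 1, the promoter motifs and the genes nearest to Hspa5 were chosen after values were seen. Of 218 listed symbols, 217 were matched, and 2 further markers are not reported here.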

Additional observations from a re-analysis of the deposited data

Results flagged for a closer look

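In each group of 4 libraries, the gap between the library farthest out and its nearest neighbour was divided by the range of the group, and a share above Dixon's 95% value for 4 libraries drew attention. Of 120 groups examined, 12 passed, where chance gives about 1 in 20 for separate groups. The 120 groups are not separate, since genes that vary together can be flagged in the same library. No share over all genes is given here, so no conclusion is drawn from the count.

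Control replicate 4 stood apart for 3 chaperone and isomerase genes. Hsp90b1 had 452 CPM there against 392.3 to 400.1 CPM in the other controls (share 0.869), Sdf2l1 had 38.5 CPM against 27.5 to 28.5 CPM (0.907), and Pdia3 had 437 CPM against 392.3 to 399 CPM (0.849). Control replicate 5 stood apart for the 3 signal peptidase genes. Sec11c had 308 CPM there against 274 to 278 CPM in the other controls (0.884), Spcs1 had 92.9 CPM against 80.6 to 82.2 CPM (0.873), and Spcs2 had 204 CPM against 179 to 183 CPM (0.856). Control replicate 3 was low for Eif2ak3, at 129 CPM against 137 to 138 CPM (0.833).

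Among deficient libraries, replicate 1 was high for Spcs2, at 222 CPM against 181 to 186 CPM in the others (0.857). Replicate 2 was low for Ddit3, at 10.7 CPM against 13.5 to 13.9 CPM (0.882), and replicate 8 was high for Syvn1, at 515 CPM against 472 to 478 CPM (0.873). Among FO libraries, replicate 3 was low for Mzb1, at 157 CPM against 169.7 to 171 CPM (0.886), and high for Sec24d, at 7.44 CPM against 5.60 to 5.85 CPM (0.866).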

How the results depend on the processing

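Manf and Man1b1 passed under all 14 alternatives in deficient against control MZ cells. A second gene rose with DESeq2 (Creld2, making 2 higher) and without deficient replicate 1 (Jchain, also 2 higher), so the count of higher genes ran from 1 to 2 as single libraries were left out. The count over all genes was 517 and came to 1057 with DESeq2 and 788 in the fit over 12 libraries. It ran from 253 to 483 with single libraries left out, and fell to 299 without deficient replicate 8, 306 without control replicate 3, 253 without control replicate 4 and 311 without control replicate 6. The cause was not tested. Deficient and control MZ groups share no replicate number, so no paired fit was made there. For control MZ against FO, the fit with a replicate block called 9951 of all genes and 36 of the 40, 20 higher and 16 lower. Of these, 34 passed without the block too. Pdia6 (log2 fold change -0.185, adjusted p = 0.0211) and Canx (-0.289, 0.00894) passed with the block and not without it, and Eif2ak3 (-0.111, 0.178) and Creld2 (0.212, 0.0722) passed without it and not with it (edgeR). Only numbers 3 and 4 occur in both groups. The labels do not say that these pair, and the deviations of same-numbered libraries from their group means correlated at -0.06 for number 3 and -0.14 for number 4 across genes. The sign of uncalled genes near 0 turned when single libraries were left out. In deficient against control cells the log2 fold change then ran from -0.0013 to 0.0594 for Atf6, -0.0919 to 0.0452 for Ddit3, -0.0103 to 0.077 for Eif2ak3, -0.0063 to 0.15 for Pdia3, -0.0109 to 0.196 for Pdia6, -0.64 to 0.27 for Sdc1, -0.0557 to 0.0062 for Sec61a1, -0.0257 to 0.0835 for Spcs2, -0.0242 to 0.159 for Ssr2 and -0.0676 to 0.0478 for Xbp1. In control MZ against FO cells Pdia6 ran from -0.11 to 0.11 as single libraries were left out, and was 0.0023 with DESeq2 size factors and 0.0348 with the stricter filter. The stress element with 1 mismatch was found in 13 genes in place of 8, the further 5 being Pdia3, which followed Hspa5, and Ddit3, Pdia4, Herpud1 and Sel1l, and the heptamer in any annotated 3′ UTR in 12 in place of 11. Genes near 1 CPM, such as Sdc1 and Jchain, have the widest errors.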
